A study of Mus musculus with 16 samples.

Results

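The genes described here are 32 enzymes and regulators of fatty acid and cholesterol synthesis, out of 55573 gene identifiers in the study's count table. They were chosen by name from the lipogenic and mevalonate pathways. Of these, 12 belong to the fatty acid branch, from Srebf1 and Acly to the desaturases and elongases, and 20 belong to the sterol branch, from Srebf2 and Acat2 to Dhcr7 and Insig1. A total of 31 members had enough counts to be tested (11 fatty acid, 20 sterol). The exception was Scd1, with 16 counts over all libraries.

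The RNA came from OT1 CD8 T cells, cytotoxic T lymphocytes of C57BL/6 mice whose receptor recognises ovalbumin. The cells had been given as a mixture of Foxp3UP and Mock cells to mice with tumors, and 5 days later they were recovered from tumor suspensions by sorting on CD8 and the congenic markers CD45.1 and/or CD90.1. Foxp3 is the transcription factor that defines regulatory T cells. The bulk RNA-seq libraries carry 4 labels, Foxp3UP, MockUP, Foxp3DN and MockDN, with 4 libraries each. The labels used here do not say how Foxp3 was imposed, what UP and DN stand for, what the Mock cells carried, which tumor was used or whether the libraries of a group came from separate animals. The p-values therefore measure the spread between these libraries, which may be technical. The mixture and the day are stated only for Foxp3UP and Mock cells. Each Foxp3 group was compared with the Mock group of the same suffix.

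Cells build fatty acids from cytosolic acetyl-CoA, which Acly makes from citrate and Acss2 from acetate. Acaca turns acetyl-CoA into malonyl-CoA, Fasn assembles palmitate from it, and elongases (Elovl) and desaturases (Scd, Fads) shape the chain. The sterol branch condenses acetyl-CoA through Acat2 and Hmgcs1 into mevalonate, then through isoprenoid units to squalene, lanosterol and cholesterol. The SREBP factors encoded by Srebf1 and Srebf2 switch on both branches when membrane sterol is low, and Insig1 holds them back in the endoplasmic reticulum. T cells use both branches to build membranes when they divide.

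The stretches upstream of 6 members are shown because the results below turn on these genes and because SREBP and its partners are known to act close to the start sites of this pathway. Each line gives the 250 bases before a start annotated by RefSeq (GRCm38.p6, the sequence of mm10), read 5′ to 3′ on the gene's strand. Fasn is the member with the largest decrease in Foxp3UP, Acss2, Elovl6 and Mvd are the members with increases, and Hmgcs1 and Insig1 are 2 sterol-regulated members that did not pass the test. Capitals mark the letters of 4 motifs, searched on both strands: the sterol regulatory element TCACNCCAC, the NF-Y box CCAAT, the E-box CACGTG and the Sp1 box GGGCGG.
Fasn, chr11:120824548-120824797, minus strand: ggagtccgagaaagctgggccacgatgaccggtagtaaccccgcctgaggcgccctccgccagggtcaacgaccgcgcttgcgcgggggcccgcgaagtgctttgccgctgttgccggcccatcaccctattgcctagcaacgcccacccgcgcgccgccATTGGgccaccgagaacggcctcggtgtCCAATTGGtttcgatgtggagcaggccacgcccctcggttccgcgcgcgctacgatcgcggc
Acss2, chr2:155517793-155518042, plus strand: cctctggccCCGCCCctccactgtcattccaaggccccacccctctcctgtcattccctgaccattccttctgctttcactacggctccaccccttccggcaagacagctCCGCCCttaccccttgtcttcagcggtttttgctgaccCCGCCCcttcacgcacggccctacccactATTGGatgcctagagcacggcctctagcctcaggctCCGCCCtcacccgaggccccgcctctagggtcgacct
Elovl6, chr3:129532136-129532385, plus strand: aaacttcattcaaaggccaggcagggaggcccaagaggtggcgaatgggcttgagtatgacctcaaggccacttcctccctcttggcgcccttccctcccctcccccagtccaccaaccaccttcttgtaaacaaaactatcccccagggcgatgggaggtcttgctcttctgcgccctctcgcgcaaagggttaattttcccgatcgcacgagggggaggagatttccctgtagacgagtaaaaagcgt
Mvd, chr8:122443423-122443672, minus strand: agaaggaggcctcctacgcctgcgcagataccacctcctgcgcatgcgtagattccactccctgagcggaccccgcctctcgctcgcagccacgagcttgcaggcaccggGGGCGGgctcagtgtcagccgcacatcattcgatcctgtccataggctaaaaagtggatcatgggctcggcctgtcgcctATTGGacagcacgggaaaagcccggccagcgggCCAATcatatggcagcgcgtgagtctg
Hmgcs1, chr13:119690101-119690350, plus strand: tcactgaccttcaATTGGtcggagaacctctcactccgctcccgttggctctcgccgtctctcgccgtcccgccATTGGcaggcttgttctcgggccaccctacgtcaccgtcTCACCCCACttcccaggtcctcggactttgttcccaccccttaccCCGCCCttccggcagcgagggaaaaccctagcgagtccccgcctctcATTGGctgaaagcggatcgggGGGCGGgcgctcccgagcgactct
Insig1, chr5:28071162-28071411, plus strand: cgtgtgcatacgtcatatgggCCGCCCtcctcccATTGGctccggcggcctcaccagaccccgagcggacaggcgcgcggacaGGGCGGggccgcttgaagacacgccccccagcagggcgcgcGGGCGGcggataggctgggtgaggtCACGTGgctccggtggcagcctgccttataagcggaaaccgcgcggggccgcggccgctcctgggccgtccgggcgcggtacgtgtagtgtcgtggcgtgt

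Such windows, taken from 250 bases before to 50 after the start, were found for 26 of the 32 members (9 fatty acid, 17 sterol). CCAAT was present in 22 of the 26 members (84.6%) and in 41.1% of 27025 genes with a window. GGGCGG was present in 21 of the 26 (80.8%) and in 38.2% of all genes, and CACGTG in 5 of the 26 (19.2%) and in 8.09%. The sterol regulatory element as spelled was present in 1 member, Hmgcs1, at -137 counted from the start, and in 1.44% of all genes. In the Fasn window CCAAT lay at -90, -62 and -59 in one strand or the other, with the last pair overlapping. The Mvd window held CCAAT at -60 and -27, and the Elovl6 window held none of the 4 motifs. A match describes letters, not a bound site. Acss2, Elovl6 and Mvd were higher and Fasn lower in Foxp3UP, and the windows of the genes that were higher ranged from no motif (Elovl6) to 4 Sp1 boxes and a CCAAT upstream of the start (Acss2).

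Library totals ranged from 9389477 to 13226590 counts. Summed over 7 genes of the T cell receptor complex and CD8, the CD8 T cell markers stood at 5133 to 6175 CPM (counts scaled to library size by the TMM method) in Foxp3UP, 3336 to 5551 in MockUP, 4800 to 5708 in Foxp3DN and 4929 to 5363 in MockDN. The lowest sum was that of MockUP replicate 2, and the other 15 libraries stood at 4682 or more. In that library Cd3g was at 433 CPM, against 814 or more elsewhere, and Cd3d at 252, against 437 or more. Adipocyte markers summed to at most 0.303 CPM. The 4 B cell genes reported summed to 4.41 to 7.92 CPM in Foxp3UP and 3.80 to 5.84 in MockUP: Cd79b (3.04 to 6.92 CPM over the 16 libraries) and Cd79a (0.388 to 1.26) were detected in every library, and Ms4a1 and Pax5 were at 0. The 4 pigment cell genes listed (Mlana, Pmel, Tyr, Dct) were all detected, summing to 51.2 to 109 CPM in Foxp3UP, 48.0 to 73.3 in MockUP, 27.4 to 60.5 in Foxp3DN and 18.3 to 55.9 in MockDN. The 8 macrophage and monocyte genes summed to 49.1 to 71.4 CPM in Foxp3UP and 34.6 to 53.7 in MockUP. The 2 CD4 T cell genes summed to 8.65 to 13.1 CPM in Foxp3UP and 6.46 to 8.26 in MockUP, the 5 fibroblast genes to 0.793 to 8.14 and 0.285 to 2.49, and the 4 epithelial genes to 9.08 to 19.2 and 4.56 to 11.5. The part of such cells in the results below was not tested. In bulk RNA a smaller number of cells with a transcript and less of it per cell cannot be told apart. MockUP replicate 2 also stood apart from the other 15 libraries in that its deviations from the mean of all libraries rose with gene length (Spearman rho 0.44 across genes, which are not replicates, against -0.25 to 0.11 in the others), so results that rest on it are given with and without it.

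Counted per kilobase of gene length, a scale meant for comparing different genes, the set spanned more than 3 decades. The length is that of all exons of a gene in the count table, which can far exceed that of a transcript. For Acss2 it is 10163 bases, against 2931 in its longest coding transcript, for Acaca 17074 against 9513, and for Fasn 10947 against 10050. The order of such genes therefore depends on the length used. Acly (42.5 CPM per kb over all libraries), Elovl1 (35.9), Srebf2 (35.2), Elovl5 (34.2) and Ebp (26.7), the isomerase that moves the sterol double bond, were the most abundant. Srebf2 thus stood above Srebf1 (12.8 CPM per kb), and Insig1 (17.5) ranked sixth. Fasn (5.42), Mvd (5.00), Acss2 (3.18) and Fads1 (2.29) were in the middle, and Elovl6 (1.13) and Acaca (0.830) were near the bottom. Of the 2 stearoyl-CoA desaturases, Scd2 was present at 8.07 CPM per kb and Scd1 at 0.0193. The counts of Scd1 were 1, 0, 0 and 0 in Foxp3UP replicates 1 to 4, 1, 0, 3 and 3 in MockUP, 3, 1, 0 and 0 in Foxp3DN and 0, 0, 2 and 2 in MockDN. It thus gave no count in 8 of the 16 libraries and at most 0.324 CPM in the others, and no fold change was computed. Fads2, the delta-6 desaturase, was close to the limit as well (0.165 CPM per kb), while its partner Fads1, the delta-5 desaturase, was measured well.

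**Figure D1:**
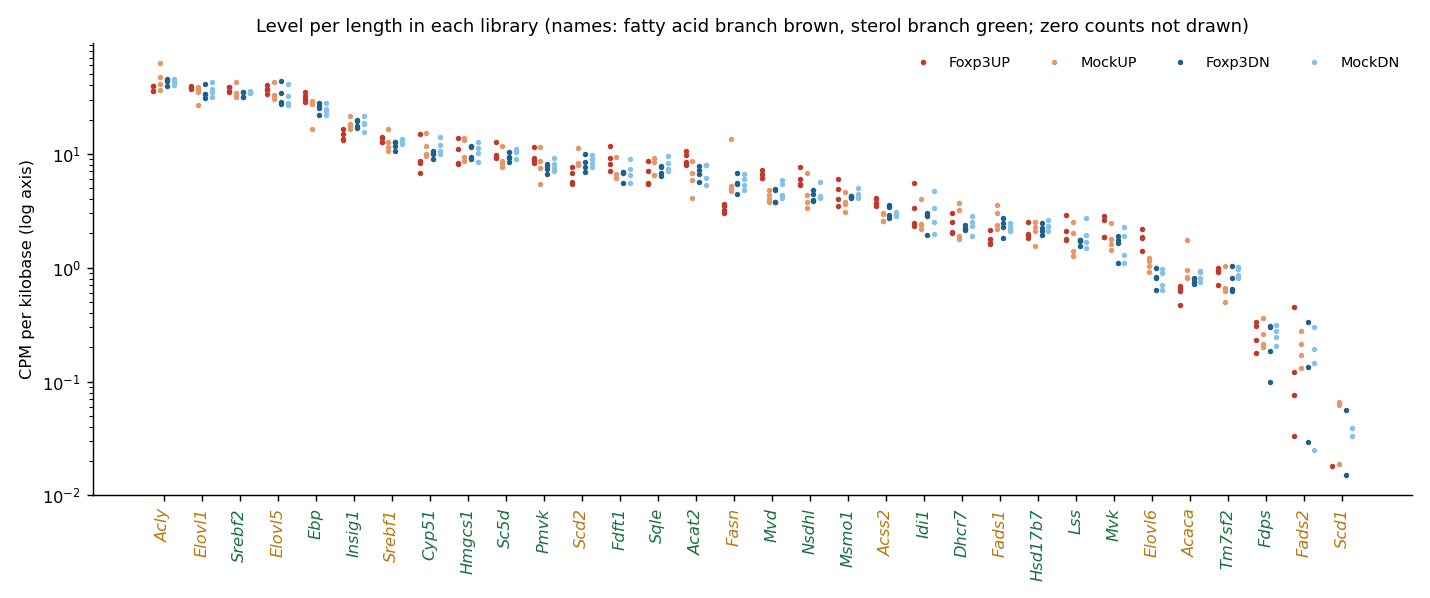
Level of each of the 32 members in CPM per kilobase of gene length (log axis), 1 point per library and 1 colour per group, ordered by the mean over all libraries; zero counts are not drawn. Acly, at 42.5 CPM per kb, leads the order, and Fads2 and Scd1, at 0.165 and 0.0193, close it.

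In Foxp3UP against MockUP, 7 of the 31 tested members passed the test (edgeR, adjusted p under 0.05 over all genes), where 12.1% of the 13711 genes tested did. In the fatty acid branch 6 of 11 passed: Acss2 and Elovl6 were higher, and Fasn, Acaca, Scd2 and Fads1 were lower. In the sterol branch 1 of 20 passed, Mvd, which was higher. The median log2 fold change was -0.19 over the fatty acid branch, 0.22 over the sterol branch and 0.0041 over all genes tested. The fatty acid median is the value of Fads2, which had 97 counts in all (-0.19 ± 0.78), and of the other 10 members tested in that branch 5 lay above and 5 below 0. The Foxp3UP and MockUP libraries did not overlap for 7 of the 31 tested members (3 higher, 4 lower), and for 15.9% of all genes tested. These 7 were the called members, which the test had picked from the same libraries, so the separation is no further support for them.

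Fasn and Acaca, which catalyse consecutive steps, were lower in Foxp3UP. Fasn (ENSMUSG00000025153, chr11:120805846-120824547, minus strand, mm10), the multifunctional synthase that makes palmitate, stood at 35.3, 38.2, 39.6 and 33.2 CPM in Foxp3UP replicates 1 to 4 and at 57.6, 147, 51.2 and 53.9 CPM in MockUP. It stood at 74.7, 59.4, 60.9 and 48.6 CPM in Foxp3DN and at 65.5, 52.9, 73.2 and 58.2 CPM in MockDN. All 4 Foxp3UP libraries lay below the other 12, and MockUP replicate 2 lay far above every other library. The log2 fold change of Fasn against MockUP was -1.08 ± 0.27 (SE, edgeR adjusted p = 0.0145), a 2.12-fold decrease. Without MockUP replicate 2 it was -0.57 ± 0.13 (edgeR adjusted p = 0.00810).

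Acaca (ENSMUSG00000020532, chr11:84129672-84401651, plus strand), the acetyl-CoA carboxylase that commits carbon to fatty acid synthesis, stood at 8.11, 11.4, 11.7 and 10.6 CPM in Foxp3UP and at 13.7, 30.0, 14.1 and 16.4 CPM in MockUP. In the DN groups it stood at 13.8, 12.4, 12.7 and 13.6 CPM (Foxp3DN) and at 14.0, 12.7, 15.7 and 15.9 CPM (MockDN). Again the Foxp3UP libraries were the 4 lowest of 16, and MockUP replicate 2 was the highest. Its log2 fold change against MockUP was -0.83 ± 0.21 (edgeR adjusted p = 0.0152), and -0.50 ± 0.14 (adjusted p = 0.0219) without MockUP replicate 2. Of the 50-base stretches of Acaca transcripts, 52.6% also occur in another gene, chiefly the pseudogene Gm5182, which had 8 counts in all. When Foxp3UP replicate 1 was left out, the adjusted p of Acaca was 0.0530.

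In the same-numbered pairs 1 to 4 the log2 CPM in Foxp3UP minus that in MockUP was -0.70, -1.94, -0.37 and -0.69 for Fasn and -0.75, -1.38, -0.26 and -0.62 for Acaca. Pair 2, which holds MockUP replicate 2, gave the largest decrease of both genes, and pair 1 was close to pair 4. In a fit with a term for each group within replicates 1 and 2 and within replicates 3 and 4, added after the data were seen, Fasn gave -1.48 (edgeR adjusted p = 0.0121) in replicates 1 and 2 and -0.53 (adjusted p = 0.335) in replicates 3 and 4. Acaca gave -1.16 (edgeR adjusted p = 0.0213) and -0.45 (adjusted p = 0.379). MockUP replicate 2, the high library, is in the first of these sets. The same fit without it gave -0.66 (edgeR adjusted p = 0.0742) and -0.53 (adjusted p = 0.0253) for Fasn and -0.50 (adjusted p = 0.252) and -0.45 (adjusted p = 0.0849) for Acaca, with 1 MockUP library left in the first set and its spread assumed to be that of the other groups. With all libraries, the members that were higher gave these values in the 2 sets: Elovl6 gave 0.65 and 0.85, Mvd 0.58 and 0.66, and Acss2 0.56 and 0.36. Of the 7 members called in the main fit, 3 lost the call in replicates 1 and 2 and 5 lost it in replicates 3 and 4. In neither set did Elovl6, Mvd and Acss2 all keep their calls.

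Scd2 (ENSMUSG00000025203, chr19:44293674-44306864, plus strand), the desaturase that introduces the first double bond into stearate and palmitate and the main one in these cells, stood at 36.8, 41.8, 29.6 and 31.1 CPM in Foxp3UP and at 45.2, 61.3, 44.1 and 44.0 CPM in MockUP. Fads1 (ENSMUSG00000010663, chr19:10182888-10196877, plus strand) stood at 10.3, 8.65, 7.92 and 7.70 CPM in Foxp3UP and at 17.1, 14.4, 11.5 and 10.6 CPM in MockUP. In both genes the highest Foxp3UP library came close to the lowest MockUP library. The DN groups reached into the Foxp3UP range: Scd2 stood at 38.2 to 54.8 CPM in Foxp3DN and 41.7 to 53.1 in MockDN, and Fads1 at 8.82 to 13.3 and 10.1 to 11.9. The log2 fold change of Scd2 was -0.48 ± 0.15 (edgeR adjusted p = 0.0389), and that of Fads1 was -0.63 ± 0.17 (adjusted p = 0.0195). The call for Scd2 was lost without MockUP replicate 2 (-0.35, edgeR adjusted p = 0.0912), without Foxp3UP replicate 1 (adjusted p = 0.0638), without Foxp3UP replicate 3 (adjusted p = 0.117) and without Foxp3UP replicate 4 (adjusted p = 0.108). The call for Fads1 was lost without Foxp3UP replicate 3 (edgeR adjusted p = 0.0638), without Foxp3UP replicate 4 (adjusted p = 0.0596) and without MockUP replicate 1 (adjusted p = 0.0599).

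Acss2 and Elovl6 were higher in Foxp3UP. Acss2 (ENSMUSG00000027605, chr2:155517948-155585724, plus strand), the cytosolic and nuclear acetyl-CoA synthetase that uses acetate, stood at 41.7, 41.1, 37.5 and 35.5 CPM in Foxp3UP and at 25.9, 30.1, 30.8 and 26.0 CPM in MockUP. Its log2 fold change was 0.47 ± 0.11 (edgeR adjusted p = 0.00947), a 1.38-fold increase. The Foxp3DN libraries of Acss2 (27.5 to 36.2 CPM) reached into the Foxp3UP range, and those of MockDN (28.8 to 31.3 CPM) did not.

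Elovl6 (ENSMUSG00000041220, chr3:129532355-129638495, plus strand), the elongase that extends palmitate to stearate, stood at 9.08, 11.8, 11.9 and 14.1 CPM in Foxp3UP and at 5.90, 7.40, 6.66 and 7.79 CPM in MockUP. It stood at 5.25, 6.37, 4.12 and 5.33 CPM in Foxp3DN and at 5.79, 6.21, 4.51 and 4.11 CPM in MockDN. The Foxp3UP libraries were the 4 highest of 16. The log2 fold change of Elovl6 against MockUP was 0.76 ± 0.18 (edgeR adjusted p = 0.0111), a 1.69-fold increase, and 0.78 without MockUP replicate 2. The other elongases tested, Elovl1 and Elovl5, with log2 fold changes of 0.15 and 0.09, did not pass the test. Elovl6 thus was called higher while Fasn, which supplies its substrate, was called lower.

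**Figure D2:**
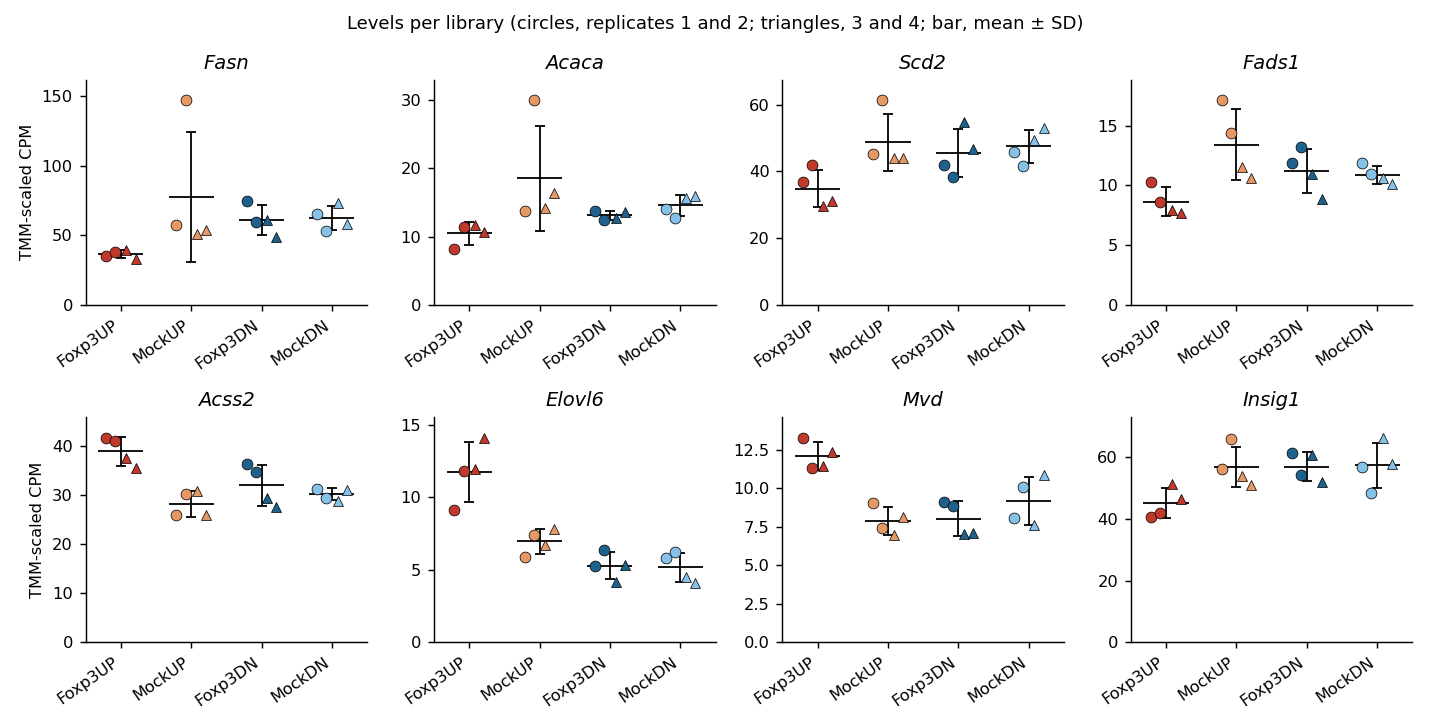
CPM per library for the 7 members called in Foxp3UP against MockUP and for Insig1, by group; points are libraries (circles, replicates 1 and 2; triangles, replicates 3 and 4) and bars are means ± SD of 4 libraries. Fasn and Acaca are lowest and Elovl6 and Mvd highest in Foxp3UP, and 1 MockUP library of Fasn stands at 147 CPM.

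In the sterol branch, Mvd (ENSMUSG00000006517, chr8:122433601-122443422, minus strand), the decarboxylase that makes isopentenyl diphosphate, was the member that passed the test. It stood at 13.3, 11.3, 11.4 and 12.4 CPM in Foxp3UP and at 9.03, 7.40, 6.96 and 8.11 CPM in MockUP. In Foxp3DN it stood at 9.12, 8.88, 7.06 and 7.07 CPM and in MockDN at 8.09, 10.1, 7.63 and 10.9 CPM. All 4 Foxp3UP libraries lay above the other 12. The log2 fold change against MockUP was 0.62 ± 0.15 (edgeR adjusted p = 0.0128), a 1.54-fold increase. Over all genes tested 9.98% had every Foxp3UP library beyond the 12 libraries of the other groups, on one side or the other. Among the 31 members these were Elovl6 and Mvd above and Fasn and Acaca below (12.9%).

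The regulators of the pathway did not pass the test. Srebf1 stood at 77.8, 78.7, 72.3 and 71.9 CPM in Foxp3UP and at 71.6, 93.2, 64.8 and 59.4 CPM in MockUP (log2 fold change 0.06 ± 0.12, edgeR adjusted p = 0.803). Srebf2 stood at 280, 277, 258 and 250.5 CPM in Foxp3UP and at 246, 309, 238 and 227 CPM in MockUP (0.06 ± 0.09, edgeR adjusted p = 0.728). For both factors MockUP replicate 2 was the highest library of all 16. In the fits that left out 1 library, the log2 fold change of Srebf1 lay between -0.03 and 0.20. That of Srebf2 lay between 0.003 and 0.16, and neither factor was called in any of these fits. Insig1, a textbook SREBP target as well as its brake, stood at 40.5, 42.1, 51.3 and 46.4 CPM in Foxp3UP and at 56.2, 66.1, 53.9 and 51.0 CPM in MockUP. Its log2 fold change was -0.33 ± 0.12 (edgeR adjusted p = 0.0700), and its groups overlapped by 1 library.

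Other sterol-regulated steps did not pass the test either. Hmgcs1, the synthase that starts the mevalonate pathway, stood at 63.4, 50.2, 38.5 and 37.6 CPM in Foxp3UP and at 63.6, 61.3, 43.1 and 39.8 CPM in MockUP (log2 fold change -0.13 ± 0.19, edgeR adjusted p = 0.714). Sqle, the squalene epoxidase, stood at 47.9, 39.5, 30.2 and 30.6 CPM and at 50.6, 46.7, 35.9 and 36.2 CPM (-0.19 ± 0.16, edgeR adjusted p = 0.475). In both genes the libraries of replicates 1 and 2 were higher than those of replicates 3 and 4 in both groups, so the spread within a group exceeded the difference between groups. For Hmgcs1, 13.6% of its 50-base stretches lie in the antisense gene Gm48342, and no source used here says whether the counting used the strand.

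Same-numbered Foxp3 and Mock libraries deviated together, so the replicate number was also fitted as a block. With the block, 14 of the 31 members passed (7 higher, 7 lower), where 25.3% of all genes tested did. All 7 members called without the block were among them. The additional members with a lower level were Acly (-0.30, edgeR adjusted p = 0.0220), Cyp51 (-0.30, adjusted p = 0.0394), the lanosterol demethylase, and Insig1 (-0.33, adjusted p = 0.0309). Those with a higher level were Acat2 (0.55, edgeR adjusted p = 0.00475), Nsdhl (0.44, adjusted p = 0.0131), Fdft1 (0.34, adjusted p = 0.0210) and Ebp (0.35, adjusted p = 0.0277). Without MockUP replicate 2 the same 14 members passed with the block. Foxp3UP replicate 2 then had no partner, so pair 2 no longer counted in the comparison. Among the members with smaller values were Acly (-0.19, edgeR adjusted p = 0.0197), Fasn (-0.60, adjusted p = 5.01e-05) and Ebp (0.20, adjusted p = 0.0453). Acat2 is the cytosolic thiolase of the first mevalonate step, Fdft1 makes squalene, and Nsdhl removes the C4 carboxyl group of sterol intermediates.

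These 7 genes overlapped between groups when the pairing was set aside. Acly stood at 206, 207, 187 and 188 CPM in Foxp3UP and at 248, 330, 219 and 193 CPM in MockUP, and its edgeR adjusted p without the block was 0.0997. Acat2 stood at 26.8, 21.7, 20.2 and 25.1 CPM in Foxp3UP and at 22.0, 17.3, 10.5 and 15.1 CPM in MockUP. Replicate 1 was the highest library of each group for Acat2, and each Foxp3UP library exceeded its same-numbered MockUP library although the groups overlapped. Nsdhl showed the same order, with 21.9, 15.5, 17.0 and 15.1 CPM in Foxp3UP and 19.5, 9.49, 12.4 and 10.8 CPM in MockUP. Fdft1 stood at 47.9, 37.6, 29.0 and 33.2 CPM against 38.3, 25.3, 25.2 and 27.4 CPM. Ebp stood at 80.1, 65.8, 70.6 and 74.9 CPM against 67.6, 37.9, 63.5 and 64.2 CPM, and the low value is again MockUP replicate 2. Cyp51 stood at 66.3, 38.5, 30.0 and 36.3 CPM against 68.0, 51.3, 42.5 and 43.6 CPM.

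Some of these values rest on reads that other genes can share. Of the 50-base stretches of Acat2 transcripts, 45.9% also occur in another gene, chiefly Acat3, which had 10125 counts against 3302 for Acat2. The log2 fold change of Acat3 in the same comparison was -0.23 (edgeR adjusted p = 0.245). Fdft1 overlaps the cathepsin gene Ctsb on the other strand over 774 bases. Ctsb had 67264 counts against 5407 for Fdft1 and was higher in Foxp3UP (0.46, edgeR adjusted p = 0.00847). The part of these neighbours in the values of Acat2 and Fdft1 was not tested. For Fdps, 86.4% of the stretches are shared, and it had 187 counts in all.

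**Figure D3:**
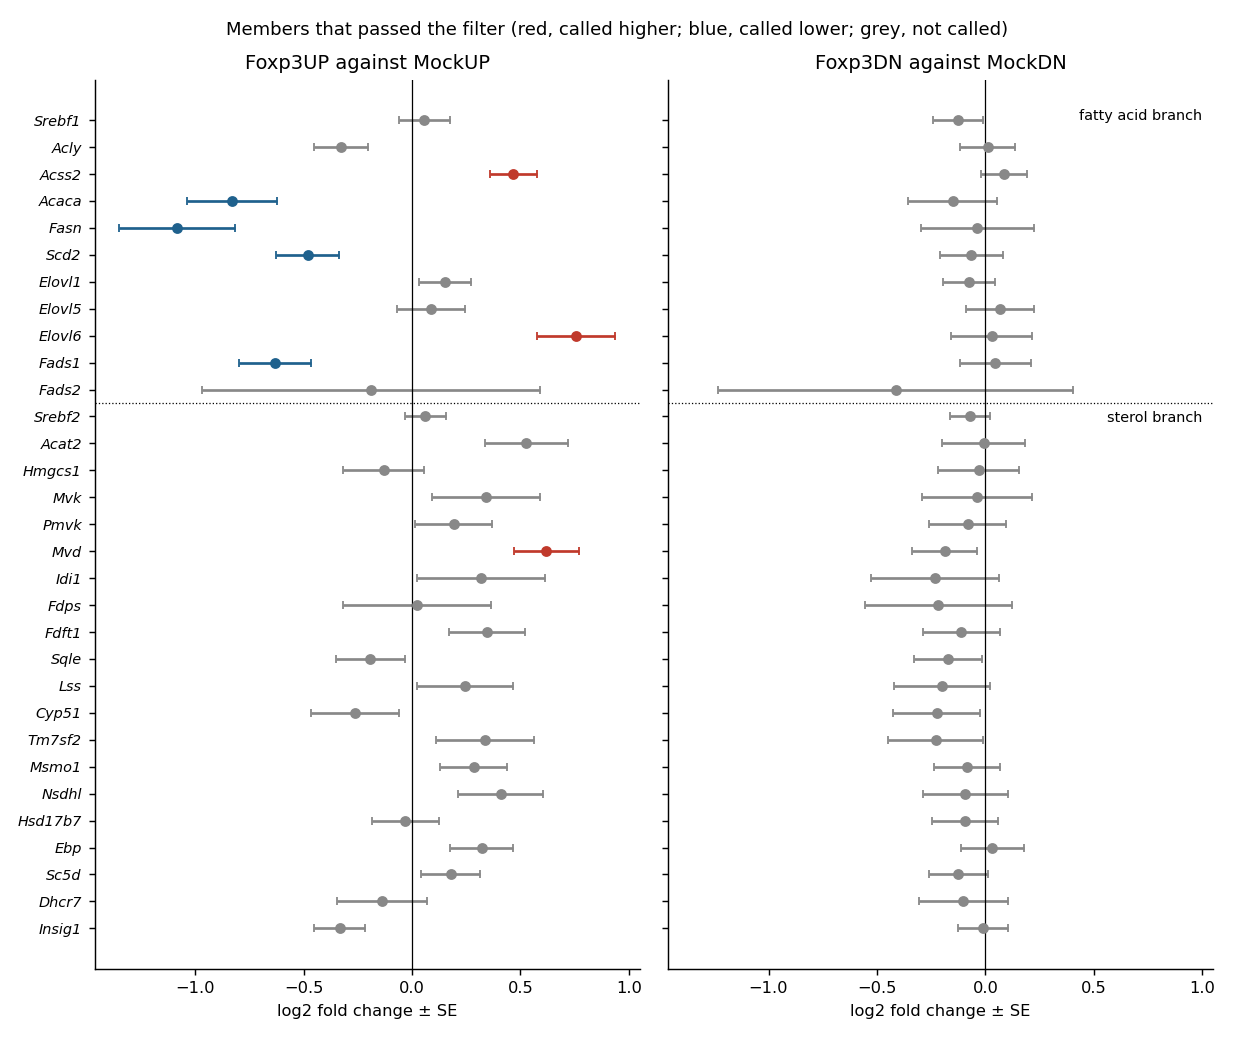
Log2 fold change ± SE of the 31 tested members in Foxp3UP against MockUP (left) and Foxp3DN against MockDN (right), fatty acid branch above the dotted line and sterol branch below. Red and blue mark the 3 members called higher and the 4 called lower on the left; none is called on the right.

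Counted by pairs, 20 of the 31 members differed in 1 direction in all 4 same-numbered pairs of Foxp3UP and MockUP (64.5%), where 39.3% of all genes tested did. The 11 that were higher in every pair were Acss2 and Elovl6 from the fatty acid branch and Acat2, Mvk, Mvd, Idi1, Fdft1, Lss, Nsdhl, Ebp and Sc5d from the sterol branch. The 9 that were lower in every pair were Acly, Acaca, Fasn, Scd2, Fads1, Hmgcs1, Sqle, Cyp51 and Insig1. The sterol branch thus held genes of both directions. Mvk, Idi1, Lss and Sc5d, with log2 fold changes of 0.34, 0.32, 0.24 and 0.18, did not pass the test with or without the block. The remaining members, Fads2, Fdps, Pmvk, Tm7sf2, Msmo1, Hsd17b7 and Dhcr7, lay between -0.19 and 0.34 in log2 fold change and did not pass the test with or without the block.

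**Figure D4:**
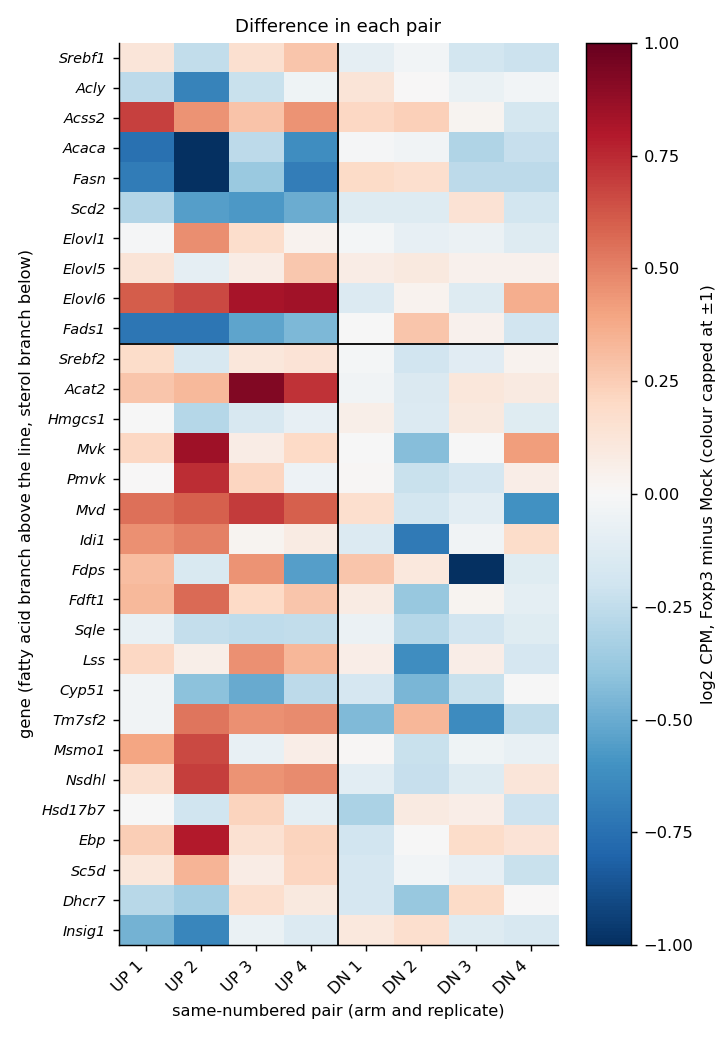
Log2 CPM of each Foxp3 library minus that of the same-numbered Mock library, for 30 members (rows; Fads2, near the detection limit, and Scd1 are not drawn) in the 4 UP and 4 DN pairs (columns). Rows such as Elovl6 and Mvd (red) and Fasn and Scd2 (blue) keep 1 colour over the 4 UP pairs, and most DN cells are paler, with exceptions such as Fdps in pair 3.

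The branch means give the same data per library, as a description without a test. They are not scaled by gene length, so a higher mean in a branch does not mean higher expression of that branch. The difference between the branches is compared only between libraries. The mean log2 CPM of the fatty acid branch exceeded that of the sterol branch by 0.17, 0.42, 0.52 and 0.38 in Foxp3UP and by 0.35, 1.07, 0.80 and 0.64 in MockUP. In Foxp3DN the excess was 0.71, 0.51, 0.58 and 0.37, and in MockDN it was 0.58, 0.35, 0.58 and 0.52. The mean was 0.37 ± 0.15 (SD, n = 4) in Foxp3UP and 0.72 ± 0.30 in MockUP, or 0.60 without MockUP replicate 2. The groups overlapped, with MockUP replicate 1 inside the Foxp3UP range. Within pairs the excess was smaller in Foxp3UP in all 4, with differences of -0.18, -0.65, -0.28 and -0.26. In the DN pairs it was larger in 3 and smaller in 1. Fads2, near the detection limit, counts in the fatty acid mean as much as any other member. Its own differences in UP pairs 1 to 4 were 0.61, -0.80, -0.61 and -1.08, and the means were not computed without it.

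**Figure D5:**
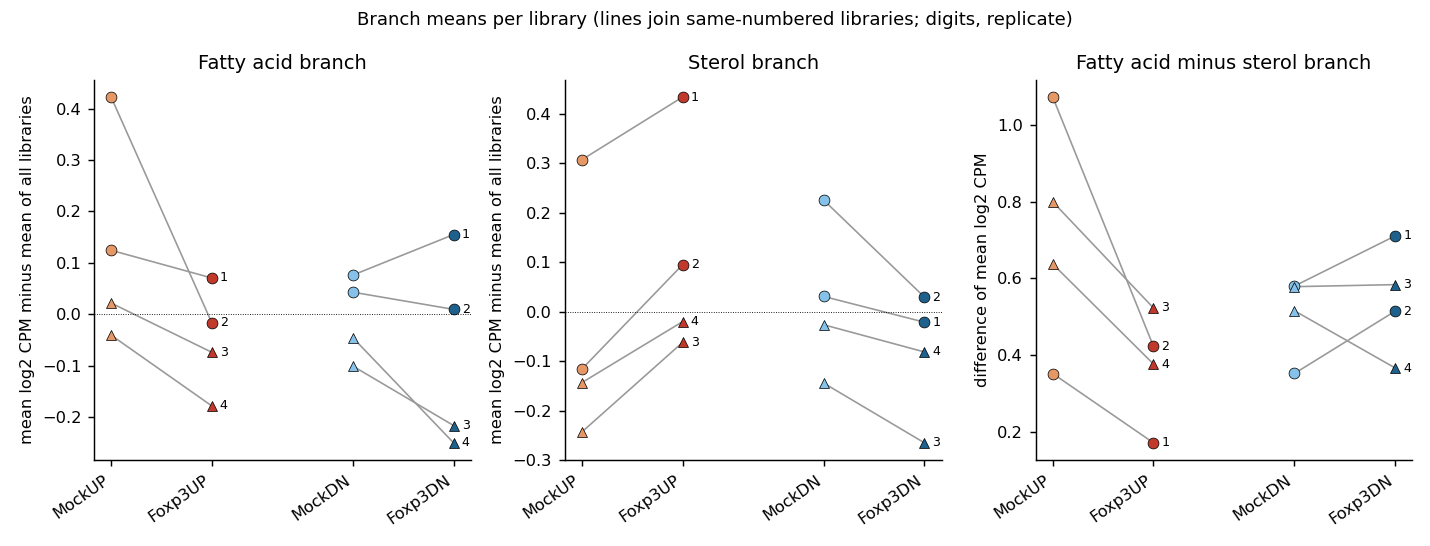
Mean log2 CPM of the fatty acid branch (left) and the sterol branch (middle), each minus its mean over all 16 libraries, and the fatty acid minus the sterol mean (right), with lines joining same-numbered Mock and Foxp3 libraries. In all 4 UP pairs the first is lower, the second higher and the difference smaller in Foxp3UP; in all 4 DN pairs the sterol mean is lower in Foxp3DN.

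In Foxp3DN against MockDN, none of the 31 members passed the test, where 0.00729% of all genes tested did, and none passed with the block (0.00729% of all genes). No member had an unadjusted p under 0.05 in edgeR, against 143 of the 13711 genes tested (1.04%), and DESeq2 also called 0. No member's groups failed to overlap, against 1.15% of all genes tested. Fasn gave -0.04 ± 0.26, Acaca -0.15 ± 0.21, Scd2 -0.06 ± 0.14 and Fads1 0.05 ± 0.16 in log2 fold change. Acss2 gave 0.09 ± 0.11, Elovl6 0.03 ± 0.19 and Mvd -0.19 ± 0.15. In the sterol branch 19 of the 20 members had a log2 fold change below 0, with a range of -0.23 to 0.03 and a median of -0.10. In all 4 same-numbered DN pairs, 7 of the 31 members differed in 1 direction (22.6%), against 16.6% of all genes tested: Elovl5 was higher, and Srebf1, Acaca, Elovl1, Sqle, Cyp51 and Sc5d were lower.

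Whether the Foxp3 effect itself differed between UP and DN was tested as the difference of the 2 effects. No member passed (1.83% of all genes tested did), and DESeq2 called 1. An unadjusted p under 0.05 in edgeR was found for 6 of the 31 members (19.4%) and for 2145 of the 13711 genes tested (15.6%). Mvd came closest, at 0.81 ± 0.21 on the log2 scale (edgeR adjusted p = 0.0614), and 0.78 (adjusted p = 0.0668) without MockUP replicate 2. With the block, 6 members passed, where 12.7% of all genes did. The effect was more positive in UP for Mvd (0.80, edgeR adjusted p = 0.0137), Elovl6 (0.72, adjusted p = 0.0218), Acat2 (0.55, adjusted p = 0.0479) and Nsdhl (0.53, adjusted p = 0.0473). It was more negative in UP for Fads1 (-0.67, edgeR adjusted p = 0.0163) and Scd2 (-0.41, adjusted p = 0.0370). For Fasn the difference was -1.05 ± 0.37 (edgeR adjusted p = 0.169; 0.0565 with the block), and without MockUP replicate 2 it was -0.53 ± 0.18 (adjusted p = 0.110), so a different effect in UP and DN was not shown. For Acaca it was -0.34 ± 0.18 (edgeR adjusted p = 0.342) without that library. Srebf1 gave 0.18 ± 0.16 with all libraries and 0.33 ± 0.12 (edgeR adjusted p = 0.145) without MockUP replicate 2. Srebf2 gave 0.13 ± 0.13 and 0.24 ± 0.10 (edgeR adjusted p = 0.213).

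The 2 Mock groups gave no call among the members either. In MockUP against MockDN 0 of 31 members passed (0.00729% of all genes tested did) and none had groups that did not overlap (1.85% of all genes). One member, Elovl6, had an unadjusted p under 0.05 in edgeR (0.42 ± 0.19), with an adjusted p of 0.999, against 433 of the 13711 genes tested (3.16%). DESeq2 called 0 members.

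Beyond the set, 49 companion genes of the pathway were listed by role, of which 42 were tested. In Foxp3UP against MockUP 4 were higher and 1 was lower (11.9% of the 42, where 12.1% of all genes tested passed). Cyb5a, the cytochrome that passes electrons to desaturases, was higher by 0.75 ± 0.18 (edgeR adjusted p = 0.0132), while the desaturases Scd2 and Fads1 were lower. Npc2, which moves cholesterol out of lysosomes, was higher by 0.74 ± 0.13 (edgeR adjusted p = 0.00142). Insig2, the second SREBP anchor, was higher by 0.46 ± 0.13 (edgeR adjusted p = 0.0267), whereas Insig1 stood at -0.33 and was called lower only with the block. Ubxn8, a membrane protein for which no source used here gives a role in this pathway, was higher by 0.32 ± 0.09 (edgeR adjusted p = 0.0256). Aacs, which activates acetoacetate for lipid synthesis, was the companion that was lower, at -0.32 ± 0.10 (edgeR adjusted p = 0.0408). With the block 8 companions were higher and 6 lower (33.3%, against 25.3% of all genes), and in Foxp3DN against MockDN 0 of 42 passed with or without it.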

How the data were processed

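Bulk RNA-seq of sorted, adoptively transferred OT1 CD8 T cells was analysed in 16 libraries, 4 in each of 4 groups named by the labels. The values are the raw read counts per gene that the authors deposited in a single table with gene coordinates and lengths. Per the submitters' processing notes, STAR 2.6.1, Subread 1.6.3 and mm10 were used. No source used here states the counting options, the strand setting or the annotation release. Gene symbols were taken from GENCODE M21 by identifier (55394 of 55573 matched). Promoter sequences are from RefSeq (GRCm38.p6).

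Genes were filtered with filterByExpr (minimum count 10), which left 13711, and scaled by TMM. All 16 libraries were fitted together with a coefficient per group in edgeR 4.0.16 (R 4.3.3) with the robust quasi-likelihood test, and p-values were adjusted by Benjamini-Hochberg over all genes tested. A gene was called at an adjusted p under 0.05. Log2 CPM values used a prior count of 2. The fit was also run on simulated counts with known changes. These held no pairs, sets of replicates or library like MockUP replicate 2, so the run says nothing on those features. DESeq2 1.42.0, other scalings and filters, a correction for gene length, a term for the 2 sets of replicates and the omission of libraries were tried as alternatives. The replicate number was fitted as a block because same-numbered Foxp3 and Mock libraries, numbered alike in the labels, deviated together: the correlations of their deviations from the group means were 0.63, 0.21, 0.30 and 0.40 in the UP pairs and 0.36, 0.58, 0.54 and 0.30 in the DN pairs. Libraries with unlike numbers of the same set (1 with 2, 3 with 4) correlated at 0.04 to 0.36, and those of different sets at -0.52 to -0.03. Foxp3UP replicate 4 correlated with MockUP replicate 3 at 0.36, above the 0.30 of UP pair 3. In the UP groups the replicate number and the set were thus not cleanly separated. No 2 libraries held identical values.

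Single values are given for the called members, with or without the block, and for Srebf1, Srebf2, Insig1, Hmgcs1, Sqle, Scd1 and Scd2. The members and lists were chosen with earlier results of these data known. Proteins were not used here, and 1 listed marker gene is not reported here.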

Additional observations from a re-analysis of the deposited data

Results flagged for a closer look

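Among 124 sets of 4 libraries (31 members in 4 groups), 9 held a library whose gap to its nearest neighbour took up most of the group's range by Dixon's 95% criterion, which chance meets in about 1 in 20 sets. MockUP replicate 2 accounted for 4 of them: Fasn at 147 CPM against 51.2 to 57.6 in the other MockUP libraries, Acaca at 30.0 against 13.7 to 16.4, Scd2 at 61.3 against 44.0 to 45.2, and Ebp at 37.9 against 63.5 to 67.6. The first 3 were above and Ebp was below its group. MockUP replicate 1 was high for Idi1, at 14.0 CPM against 7.68 to 8.48, and for Fdft1, at 38.3 against 25.2 to 27.4. Foxp3DN replicate 3 was low for the same 2 genes, with Idi1 at 6.81 CPM against 9.98 to 10.6 and Fdft1 at 23.0 against 28.2 to 28.4. MockDN replicate 2 was high for Nsdhl, at 16.1 CPM against 11.6 to 12.2.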

How the results depend on the processing

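For Foxp3UP against MockUP, 7 members and 1654 genes were called in the main fit. The number of members called was 14 with the replicate block and 15 with the block and the gene length correction. It was 14 with the block and without MockUP replicate 2, and 2 when only the 8 libraries compared were fitted. Fitted alone, replicates 1 and 2 gave 0 members and replicates 3 and 4 gave 7. Within the fit of all libraries, replicates 1 and 2 gave 6 members and replicates 3 and 4 gave 3. The genes called were 3475, 3894, 4196 and 658 under the first 4 of these, 2567 with the set of replicates as a term (10 members), 31 with replicates 1 and 2 only and 3025 with replicates 3 and 4 only. In the fit without MockUP replicate 2, replicates 1 and 2 gave 2 members and 323 genes, and replicates 3 and 4 gave 6 and 2450. Leaving out 1 library gave 5 to 8 members and 1064 to 1978 genes. For Foxp3DN against MockDN (0 members, 1 gene) the genes called were 0 with replicates 1 and 2 only and 3 with replicates 3 and 4 only. For the difference of the 2 effects (0 members, 251 genes), the members and genes called were 1 and 651 with DESeq2, 6 and 1739 with the block, 2 and 938 with the set term, 2 and 1688 with replicates 3 and 4 only, and 10 and 2122 with the block and the length correction. With replicates 1 and 2 only 2 genes were called, and 70 for them within the fit of all libraries. Leaving out 1 library gave 0 to 1 members (Mvd, without MockUP replicate 1 or MockDN replicate 3) and 99 to 518 genes. For MockUP against MockDN (0 members, 1 gene) the genes called were 2 without a filter, 8 with DESeq2, 35 with replicates 3 and 4 only, 4 with the block and the length correction, 2 for replicates 1 and 2 within the fit of all libraries, and 1 to 2 when 1 library was left out.

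None of the 7 members called without the block changed sign under the alternatives run. The replicate block changed no call other than those given with the results. Fasn was not called without a filter on low counts (-1.09, edgeR adjusted p = 0.0652). When only the 8 libraries compared were fitted, Elovl6 and Mvd were the members called. With the gene length trend removed, 7 members were called in Foxp3UP against MockUP, with Fasn at -0.92 and Acaca at -0.68. The branch difference, Foxp3UP minus MockUP, lay between -0.37 and -0.31 over the scalings, prior counts and length correction run. The cause of these shifts was not tested. The fit of only the libraries compared was not run for the difference of the 2 effects, which needs all 4 groups. The median SE of a log2 fold change was 0.18, and members with differences of up to 0.53 (Acat2) did not pass the test. Scd1, Fads2 and Fdps were limited by few counts (16, 97 and 187), and the cause of these low counts was not tested.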
